A study of Mus musculus with 8 samples.

Results

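Runx1, Runx2, Runx3 and Cbfb, the genes of the RUNX transcription factors and of their common partner, were examined as places where reprogramming factors were bound in fibroblasts. These 4 genes were taken by name from the 21911 protein-coding genes annotated on mouse chromosomes 1 to 19, X and Y. A peak was counted to a gene when its summit, the highest point of the peak, lay in the gene body or within 100 kb of the first start site. By this rule 513 of the 661009 peaks in the 8 lists belonged to the 4 loci, with 142 at Runx1, 220 at Runx2, 69 at Runx3 and 82 at Cbfb.

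CUT&Tag, which cuts and tags the DNA beside an antibody-bound protein, was run with an antibody to the Flag epitope in MEFs, primary fibroblasts of the mouse embryo, on day 3 of their reprogramming, from 100000 cells a sample by the labels. The 8 libraries held Flag-tagged Nanog, Oct4, Sox2 or Nr5a2, in a native form or as a BiD fusion that carries a part of SS18 that contacts the chromatin remodeller BRG1. Each of the 8 groups was 1 library of 1 experiment without biological replicates, so no difference between native and BiD forms of 1 factor could be tested, and the labels do not name what else the cells received. The lists held between 54794 peaks (native Oct4) and 120594 peaks (Sox2BiD), no read totals and no control library, so intervals given for shares cover counting error only.

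RUNX proteins bind DNA through the runt domain, and CBFB does not touch DNA itself but strengthens that binding. RUNX1 is required for the first blood stem cells, RUNX2 is the master regulator of bone-forming cells, and RUNX3 acts in T cells and sensory neurons, while fibroblasts use RUNX factors at many of their enhancers. Each Runx gene has a distal promoter (P1) and a proximal promoter (P2) that start different protein forms, and RUNX proteins are known to bind at their own genes.

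The distal promoters of the 3 Runx genes shared a sequence that was absent from the other 3 RefSeq promoters of the 4 genes. Those other 3 were the proximal promoters of Runx1 and Runx3 and the promoter of Cbfb. The proximal promoter of Runx2 was not in the RefSeq set and was not searched. Each distal promoter held a pair of RUNX matches, AACCACA, 8 bases apart on the strand of the gene. They are shown here in capitals as stretches of 29 bases on the strand of the gene (RefSeq promoters, GRCm38.p6, the assembly behind mm10) because the 3 Runx genes share them; Cbfb has no such pair.
Runx1 distal promoter, chr16:92826026-92826054, minus strand: cataaacAACCACAgAACCACAagttggg
Runx2 distal promoter, chr17:44814584-44814612, minus strand: cacaaacAACCACAgAACCACAagtgcgg
Runx3 distal promoter, chr4:135120503-135120531, plus strand: gtccctcAACCACAgAACCACAaggccag

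The pair began 27 bases after the RefSeq start of Runx1, 22 bases after that of Runx2 and 135 bases before that of Runx3. Of 32851 RefSeq promoters, each 250 bases before to 50 bases after a start, 5 (0.0152%) held such a pair and 1731 (5.27%) held at least 1 RUNX match on either strand. Peaks covered the whole Runx2 pair in 5 libraries, native Nanog, NanogBiD, native Sox2, Sox2BiD and Nr5a2BiD. No peak covered the Runx1 or the Runx3 pair in any library, and the nearest summit lay 1631 bp from the former and 5940 bp from the latter.

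The next sequences are 101 bases around the median summit of regions that the results below turn on, on the plus strand of mm10. Capitals mark matches to RUNX (AACCACA), the TEAD motif (CATTCCA or CATTCCT) or the octamer read by Oct4 (ATGCAAAT), on either strand. The first 3 were bound in the most libraries of their loci, the next 3 in a single factor, and the last held the tallest Oct4BiD summit at Runx2. Of the 3 single-factor sites, that 78.0 kb upstream of Runx3 is printed for its RUNX match and not for its height. The tall Nr5a2 sites at 35.5 kb in Runx2 and 191.9 kb in Runx1 are not printed. Like the printed Nr5a2 site 73.2 kb upstream of Runx3, they held no match. The tall Nr5a2 site 6.1 kb upstream of Runx3, also not printed, held the NR5A motif (CAAGGTCA).
Runx1 proximal promoter, 128.8 kb downstream, chr16:92697344-92697444: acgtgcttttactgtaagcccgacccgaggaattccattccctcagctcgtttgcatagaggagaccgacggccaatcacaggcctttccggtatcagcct
Runx2 intron, 104.8 kb downstream, chr17:44709950-44710050: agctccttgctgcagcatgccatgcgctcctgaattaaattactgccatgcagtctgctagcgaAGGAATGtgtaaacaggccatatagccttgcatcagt
Runx3 intron, 26.3 kb downstream, chr4:135146936-135147036: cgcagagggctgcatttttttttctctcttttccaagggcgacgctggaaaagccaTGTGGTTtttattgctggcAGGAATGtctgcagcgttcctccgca
Runx1, 52.2 kb upstream, Nanog libraries, chr16:92878334-92878434: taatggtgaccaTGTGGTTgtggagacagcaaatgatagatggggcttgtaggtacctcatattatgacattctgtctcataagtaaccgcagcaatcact
Runx3, 78.0 kb upstream, Nanog libraries, chr4:135042623-135042723: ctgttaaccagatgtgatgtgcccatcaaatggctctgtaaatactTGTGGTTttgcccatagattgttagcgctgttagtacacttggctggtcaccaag
Runx3, 73.2 kb upstream, Nr5a2 libraries, chr4:135047353-135047453: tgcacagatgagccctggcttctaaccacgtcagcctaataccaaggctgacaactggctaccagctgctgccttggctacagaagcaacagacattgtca
Runx2 intron, 203.0 kb downstream, Oct4 libraries, chr17:44611725-44611825: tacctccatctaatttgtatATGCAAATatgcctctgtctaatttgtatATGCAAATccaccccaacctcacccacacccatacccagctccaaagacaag

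Runx1 (ENSMUSG00000022952.17, chr16:92601466-92826149, minus strand) held 22 summits in native Nanog, 27 in NanogBiD, 7 in native Oct4, 8 in Oct4BiD, 18 in native Sox2, 22 in Sox2BiD, 22 in native Nr5a2 and 16 in Nr5a2BiD. Both Oct4 libraries were below all 6 others. Per 10000 peaks of the library the Oct4 libraries held 1.28 and 0.851 summits, and the other 6 between 1.82 and 3.56. In summits per 100 kb of window, Runx1 stood at percentile 93.4 and 96.1 of all protein-coding genes in the Nanog libraries and 97.3 in native Sox2. It stood at 60.3 in Sox2BiD, 47.1 in native Nr5a2, 51.7 in Nr5a2BiD, 44.1 in native Oct4 and 22.7 in Oct4BiD, so native Nr5a2 was close to native Oct4 and the Sox2 forms were apart.

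Runx2 (ENSMUSG00000039153.16, chr17:44495987-44814797, minus strand) held 22, 24, 24, 41, 20, 37, 31 and 21 summits in the same order of libraries. Per 10000 peaks the Oct4 libraries were here the highest, with 4.38 and 4.36, and the other 6 lay between 2.76 and 3.44. The density of Runx2 stood at percentile 97.4 of all genes in native Oct4 and 98.4 in Oct4BiD. It was also high in native Sox2 (93.0), Sox2BiD (84.2), native Nanog (79.0) and NanogBiD (74.7), and near the middle in native Nr5a2 (51.3) and Nr5a2BiD (57.1). In the Oct4 lists Runx1 was below the middle of all genes and Runx2 among the densest.

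Runx3 (ENSMUSG00000070691.10, chr4:135120652-135177990, plus strand) held 5, 10, 6, 5, 3, 7, 20 and 13 summits in the same order. Both Nr5a2 libraries were above the other 6, with 1.85 and 1.71 summits per 10000 peaks against 0.516 to 1.32. The density of Runx3 stood at percentile 74.9 and 72.0 of all genes in the Nr5a2 libraries and between 24.4 and 63.9 elsewhere.

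Cbfb (ENSMUSG00000031885.14, chr8:105170674-105217989, plus strand) held 8, 14, 6, 10, 5, 15, 13 and 11 summits. Its summits per 10000 peaks lay between 0.860 in native Sox2 and 1.85 in NanogBiD, with no factor apart from the others. A larger window holds more summits by its length alone, and the windows spanned 324.684 kb at Runx1, 418.811 kb at Runx2 and 200.001 kb at each of Runx3 and Cbfb.

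**Figure D1:**
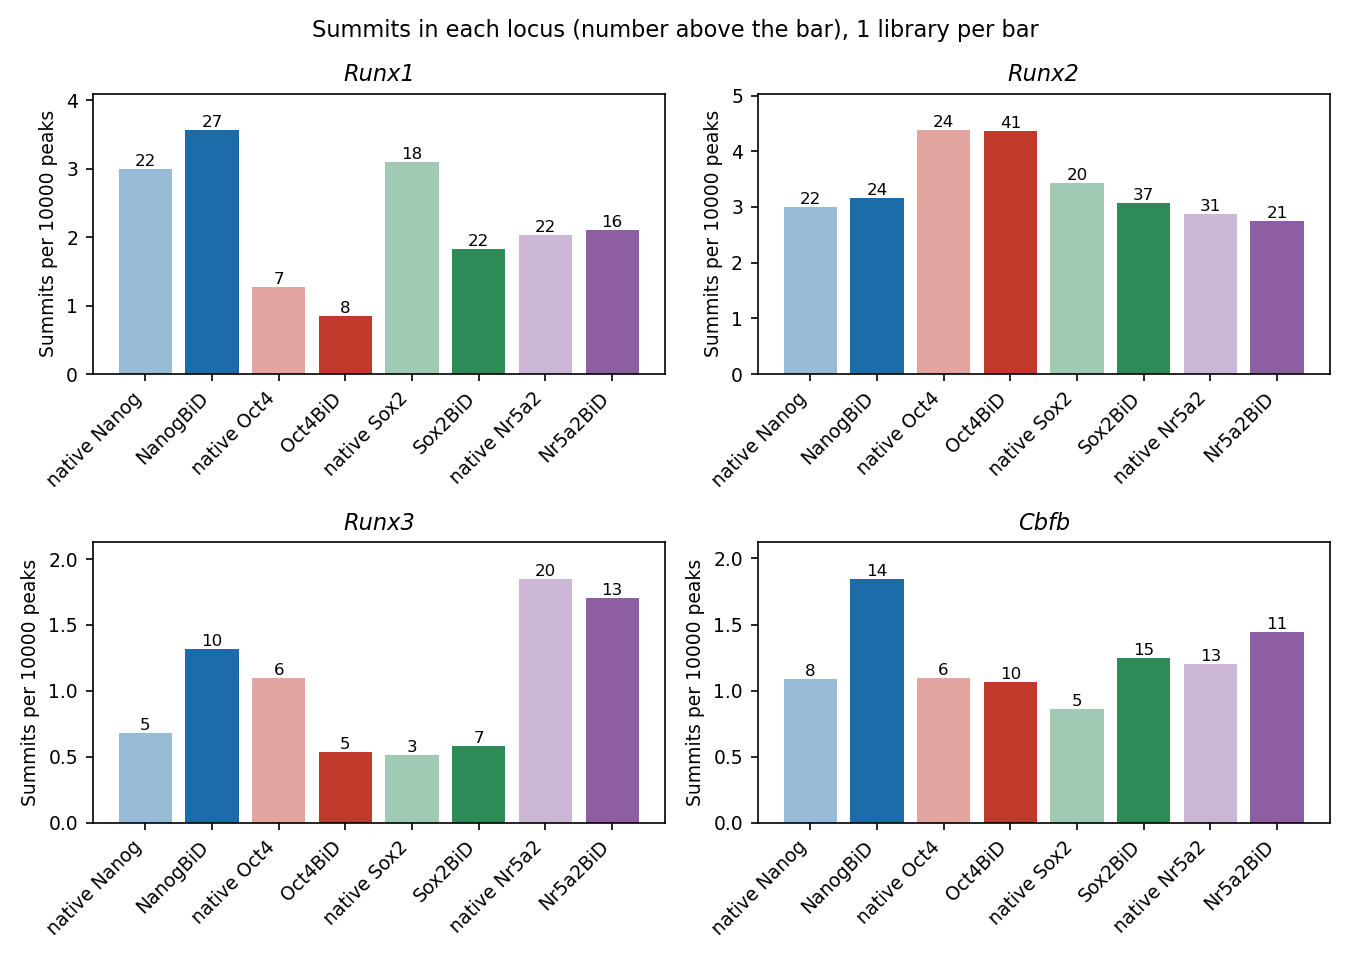
Bars give the summits per 10000 peaks of each library in the 4 loci, with the number of summits above each bar; every bar is 1 library and has no error. The red Oct4 bars are the lowest at Runx1, with 7 and 8 summits, and the highest at Runx2, with 24 and 41, and the purple Nr5a2 bars are the highest at Runx3.

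Whether factors differed in the share of their peaks at a gene was tested for each gene by asking if the native and BiD libraries of a factor were closer than libraries paired at will, with an exact permutation test over 105 pairings (one-sided, smallest p 0.0095, Benjamini-Hochberg adjustment over 18993 genes). The p was 0.0667 for Runx1, 0.0381 for Runx2, 0.124 for Runx3 and 0.562 for Cbfb, and the adjusted p of the same exact test was 0.188, 0.158, 0.242 and 0.616. No gene of the genome passed the adjusted threshold (0.0%), and 5409 genes (28.5%) were at or below 0.05 without adjustment, so 1 of 4 members at that level is near the background. The Runx2 value did not hold with peaks of score 100 or more (exact p = 0.0952) or with each list cut to its 20000 best-scoring peaks (exact p = 0.114).

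BiD libraries held more summits in the 4 loci together than their native counterparts for 3 factors and fewer for Nr5a2. Native Nanog had 57 and NanogBiD 75 summits, a log2 ratio of 0.40. The Oct4 totals of 43 and 64 gave 0.57, the Sox2 totals of 46 and 81 gave 0.82 and the Nr5a2 totals of 86 and 61 gave -0.50. These ratios averaged 0.32 ± 0.57 (SD, n = 4 factors; exact sign-flip permutation test, two-sided, p = 0.375, smallest possible p 0.125). Leaving out Nr5a2 gave a mean of 0.60 and leaving out Sox2 0.16. Per 10000 peaks of the library the log2 ratios were 0.35 (Nanog), -0.20 (Oct4), -0.24 (Sox2) and 0.01 (Nr5a2), so the signs of Oct4, Sox2 and Nr5a2 turned. The mean was then -0.020 ± 0.27 (exact p = 1), and the 20000 peaks of highest score in each library gave -0.15.

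The heights of the locus summits, in tags at the highest point, were spread through those of their libraries. The share of summits within the tallest 10% of the own library was 11 of 57 in native Nanog (19.3%, exact binomial 95% interval 10.05 to 31.9), 8 of 46 in native Sox2 (17.4%, 7.82 to 31.4) and 11 of 61 in Nr5a2BiD (18.0%, 9.36 to 29.98). It was lowest in native Oct4, with 2 of 43 (4.65%, 0.568 to 15.8). Of the 8 intervals, that of native Nanog alone left out 10%, and narrowly. Of all 513 summits 299 (58.3%) lay in introns of the 4 genes, 36 (7.02%) within 2 kb of one of their start sites, 34 (6.63%) within 2 kb of the start of another protein-coding gene, 4 in exons and 140 outside.

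**Figure D2:**
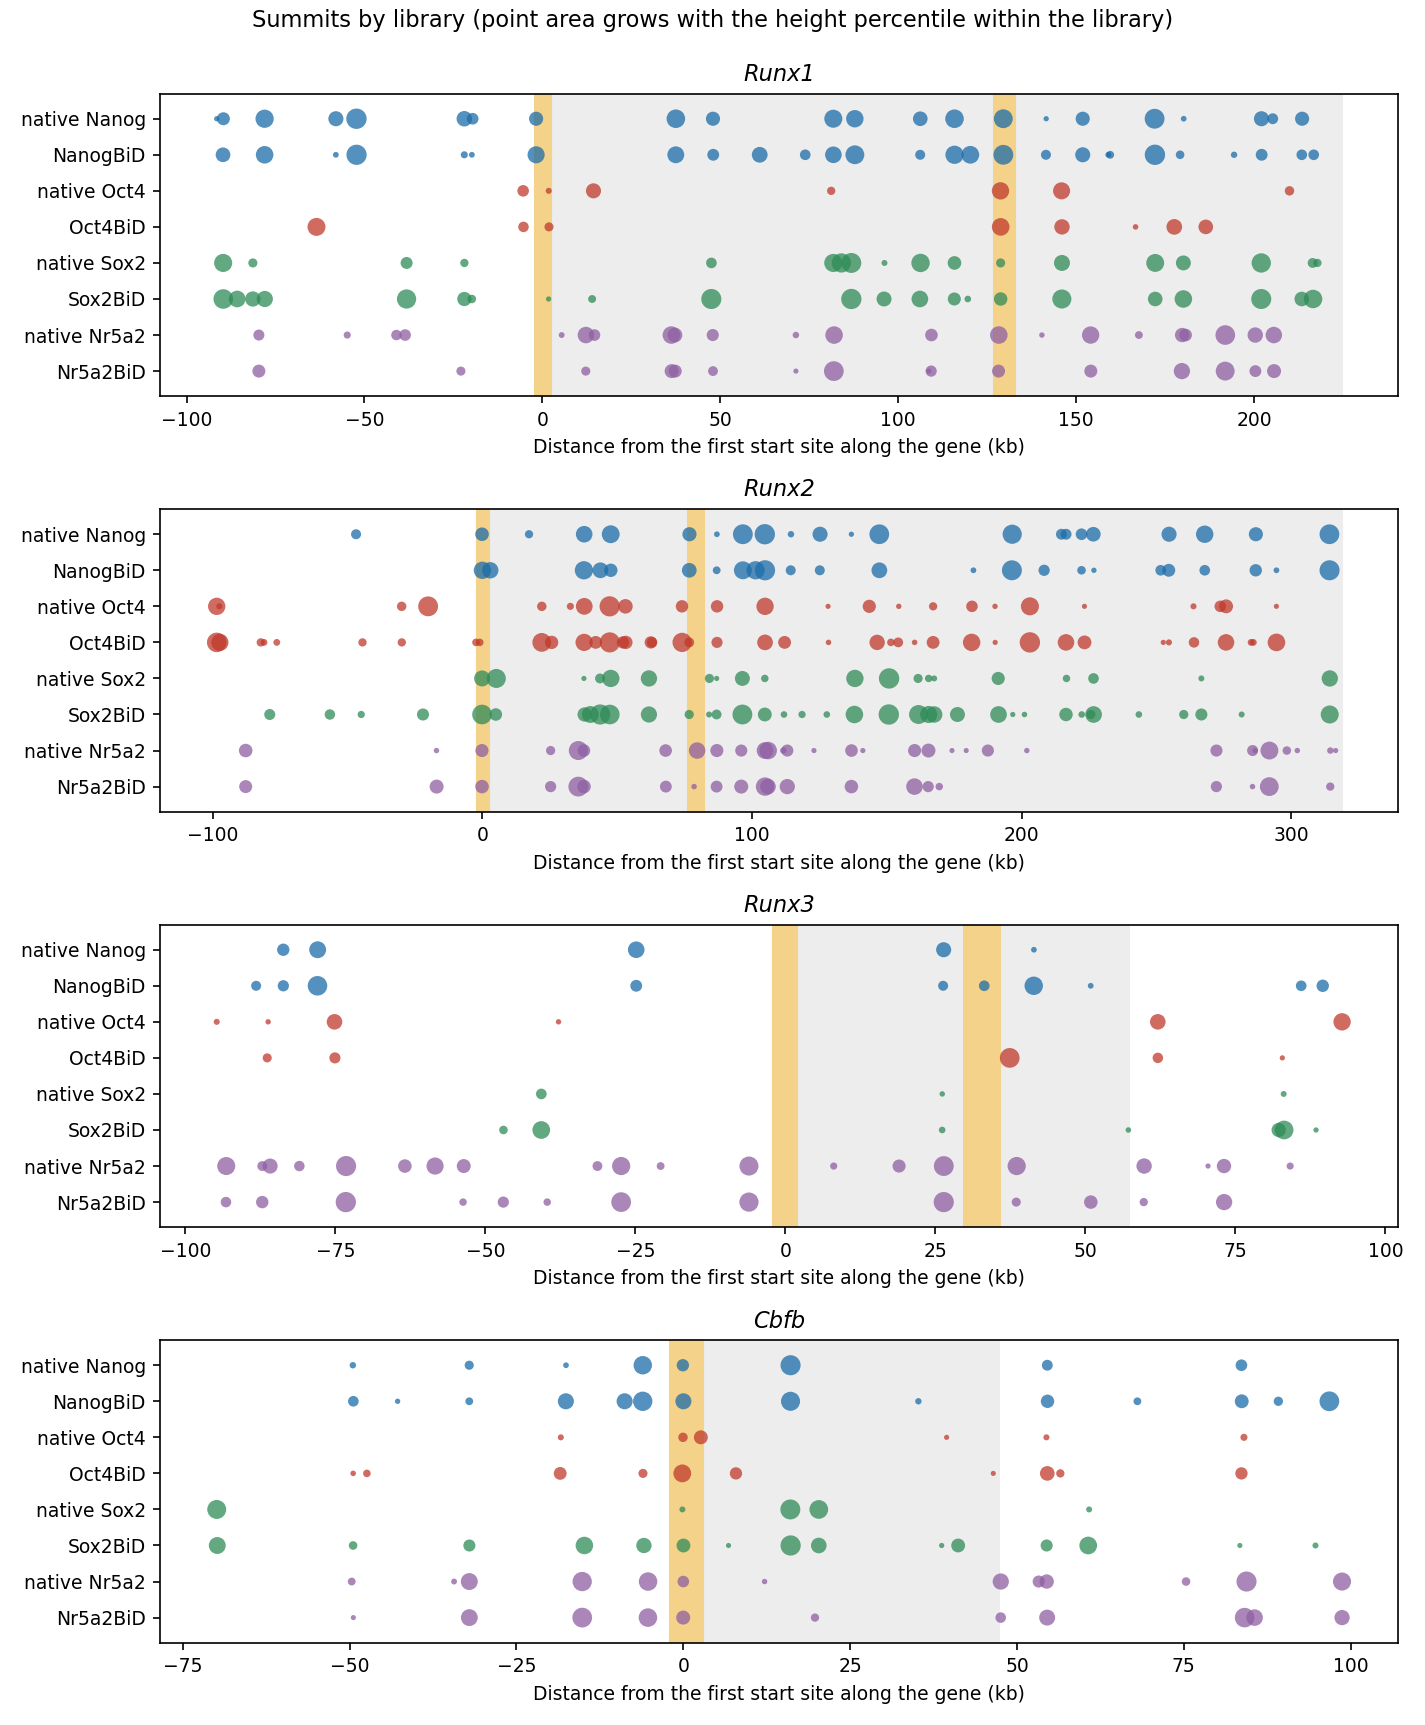
Each point is a summit, placed by its distance in kb from the first start site along the direction of the gene, with 1 row for each library; the point area grows with the height percentile within the library. Grey marks the gene body and orange the start sites with 2 kb to either side. The bound sites lie mainly inside Runx1 and Runx2 but mainly outside Runx3, and so do the windows themselves. The gene body fills 224.684 of 324.684 kb at Runx1, 318.811 of 418.811 kb at Runx2 and 57.339 of 200.001 kb at Runx3. A preference beyond these parts was not tested.

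The promoters of the 4 genes were occupied unequally. At least 1 member promoter, within 2 kb of an annotated start, held a summit at 3 of 4 genes in native Nanog, where 51.2% of all protein-coding genes did, 4 in NanogBiD (54.6%), 2 in native Oct4 (39.0%), 3 in Oct4BiD (56%), 3 in native Sox2 (25.2%), 3 in Sox2BiD (53.4%), 3 in native Nr5a2 (63.5%) and 3 in Nr5a2BiD (54%). Runx1 and Cbfb held one in all 8 libraries, as did 17.2% of all genes, Runx2 in 7 and Runx3 in 1.

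At Runx1 the proximal promoter, which starts the shorter protein form, held a summit in every library. The heights were 38, 56, 28, 37, 19, 26, 40 and 24 tags from native Nanog to Nr5a2BiD in the order given above, at scores between 146 and 343. The score is 10 times the negative log10 of the peak caller's p. Summits of the Nanog libraries lay 129500 and 129515 bp from the first start, those of Oct4 and Sox2 between 128712 and 128766 bp and those of Nr5a2 at 128236 and 128165 bp. Oct4 and Sox2 summits thus fell together, and those of Nanog and Nr5a2 to either side of them. At the distal promoter of Runx1 the 5 summits stood 1740 to 1853 bp from the first start, upstream in both Nanog libraries (21 and 35 tags) and downstream in native Oct4, Oct4BiD and Sox2BiD (12, 16 and 11 tags).

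At Runx2 the distal promoter, the one used in bone cells, held a summit in 7 libraries, with 20 tags in native Nanog, 36 in NanogBiD, 14 in Oct4BiD, 32 in native Sox2, 58 in Sox2BiD and 25 in each Nr5a2 library. Native Oct4 had none. In 6 of these libraries the summit was within 199 bp of the first start, and in Oct4BiD it was 1016 bp upstream. The proximal promoter held 21, 27, 17, 18, 35 and 13 tags in native Nanog, NanogBiD, Oct4BiD, Sox2BiD, native Nr5a2 and Nr5a2BiD, and no summit in native Oct4 and native Sox2.

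At Runx3 no library had a summit within 2 kb of the distal start, and 1 library, NanogBiD, had one at the proximal promoter, with 19 tags and a score of 70.8. The Cbfb promoter held a summit in all 8 libraries, of 18, 31, 15, 38, 15, 27, 22 and 26 tags, all within 145 bp of the first start. Native Oct4 held another there, of 20 tags and 2634 bp downstream. A small gene, Gm22063, starts within 2 kb of the Cbfb summits, and which start a peak belongs to cannot be told apart.

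**Figure D3:**
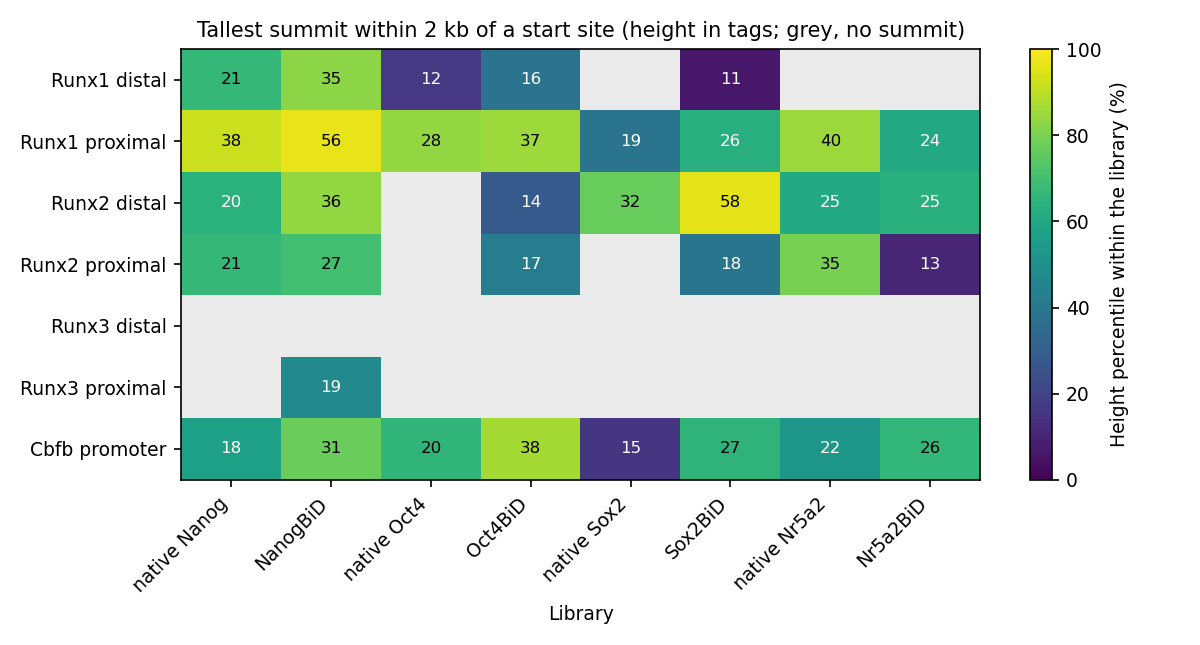
Colour gives the height percentile within the library and the number the height in tags of the tallest summit within 2 kb of an annotated start, for each promoter (rows) and library (columns); grey marks no summit. The rows of the Runx1 proximal promoter and of Cbfb are filled in all 8 libraries, and the Runx3 distal row is empty.

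Overlapping peaks of all libraries were joined to 217 regions, with 56 at Runx1, 93 at Runx2, 36 at Runx3 and 32 at Cbfb. Of these, 5 (2.30%) had a peak in all 8 libraries, against 1.49% of all 306466 regions of the genome, and 92 (42.4%) had a peak in 1 library, against 46.0%. Both shares are near the background. The 5 were the Runx1 proximal promoter, the Cbfb promoter and 3 sites within Runx2. With summits of the libraries required to lie within 100 bp of each other 3 regions remained common to all, and 1 did with peaks of score 100 or more.

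Of the 3 Runx2 sites, that at 104.8 kb (chr17:44707889-44712227) was the tallest in all libraries but Oct4BiD and Sox2BiD, with 67, 65, 28, 29, 17, 27, 40 and 42 tags in the order of libraries. It gave the tallest summit at Runx2 in both Nanog libraries. It lies in an intron of Runx2, near the start of the antisense RNA Runx2os2. That at 37.7 kb (chr17:44776531-44778253), with 27, 41, 26, 35, 13, 28, 24 and 25 tags, is at the start of Supt3, a subunit gene of the SAGA coactivator that overlaps Runx2 on the opposite strand. That at 86.9 kb (chr17:44727398-44728919) had 10, 15, 18, 19, 13, 19, 25 and 22 tags, from percentile 5.09 of the library in native Sox2 to 61.03 in native Nr5a2, so its recurrence did not go with tall peaks.

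Several introns were shared by all factors but one. At 96.4 kb in Runx2 the Nanog libraries had 49 and 39 tags, the Sox2 libraries 29 and 62 and the Nr5a2 libraries 23 and 26, and the Oct4 libraries had no peak. At 314.2 kb in Runx2 the values were 48 and 62, 33 and 43, and 14 and 17 tags, again with none in Oct4. The Runx3 site of most libraries, at 26.3 kb (chr4:135145999-135148217), also lacked Oct4 and had 23 and 18 tags in Nanog, 14 and 14 in Sox2 and 62 and 68 in Nr5a2. At 47.4 kb in Runx2 the missing factor was Nr5a2, and the tallest native Oct4 summit of the 4 loci lay there, with 60 tags in native Oct4, 69 in Oct4BiD, 32 and 24 in Nanog and 37 and 58 in Sox2.

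Nanog and Sox2 shared regions that the other factors lacked. At 87.3 kb in Runx1 (chr16:92737422-92741014) native Nanog had 30 tags, NanogBiD 45, native Sox2 60 and Sox2BiD 76. The summits there lay apart, at 87785 and 87796 bp from the first start in the Nanog libraries and at 86794 and 86800 bp in the Sox2 libraries. At 16.1 kb in Cbfb (chr8:105186022-105187529) they had 55, 47, 61 and 73 tags, with all 4 summits between 16046 and 16088 bp. These were the tallest sites of Sox2 in both loci, and neither had an Oct4 or Nr5a2 peak.

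Sites of a single factor were among the tallest of the loci. Among regions with a peak in both forms of 1 factor and in no other library, 20 belonged to Nr5a2, 13 to Oct4, 11 to Nanog and 9 to Sox2. The genome shares of each factor are not given here and the lists differ in length. The order of the factors can therefore not be read as a trait of the loci. Of 58 regions with a peak in 2 libraries 53 (91.4%) joined native and BiD forms of the same factor, against 84.3% of such regions in the genome. The Nanog site 52.2 kb upstream of Runx1 (chr16:92877774-92879139) had 75 tags in native Nanog and 68 in NanogBiD, and its native score of 911 was the highest of the Runx1 locus. Nr5a2 sites 73.2 kb upstream of Runx3 (chr4:135046628-135048562) had 69 and 73 tags, those 6.1 kb upstream of Runx3 51 and 49, those at 35.5 kb in Runx2, near the Supt3 start, 51 and 57 and those at 191.9 kb in Runx1 58 and 46, native before BiD. The tallest Oct4BiD site of the loci, at 203.0 kb in Runx2, had 31 tags in native Oct4, 87 in Oct4BiD and 12 in native Nr5a2. The tallest Sox2 site, at 150.8 kb in Runx2, had 79 tags in native Sox2 and 81 in Sox2BiD, and Oct4BiD had a peak there as well.

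**Figure D4:**
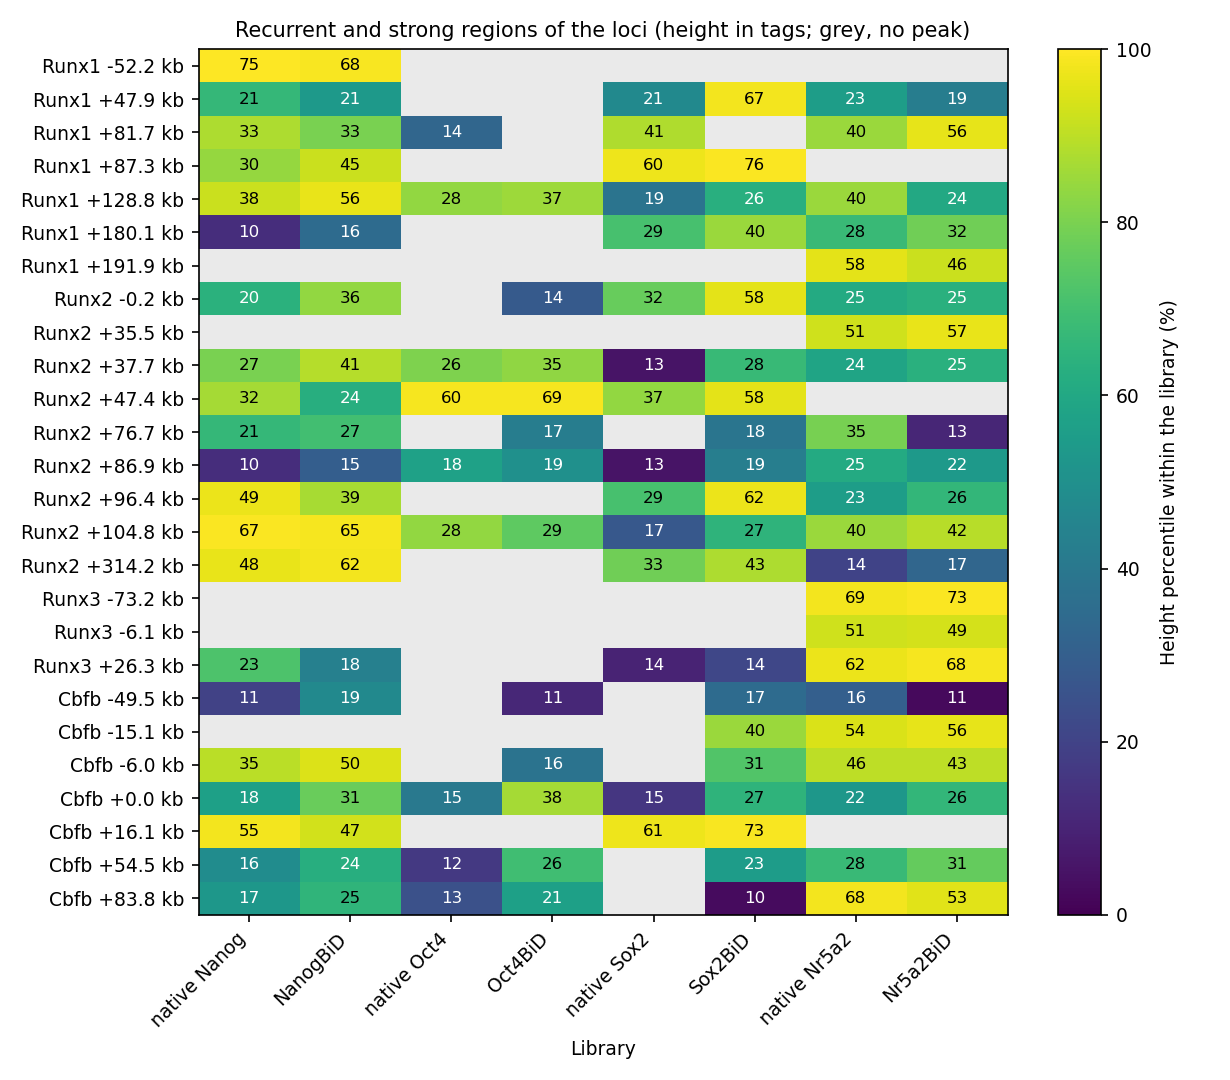
Rows are regions of the 4 loci named by their distance from the first start site in kb, columns are libraries, colour is the height percentile within the library and the number is the height in tags; grey marks no peak. Filled rows such as Runx2 at 104.8 kb stand beside rows filled for a single factor, such as Runx1 at -52.2 kb with 75 and 68 tags in Nanog.

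**Figure D5:**
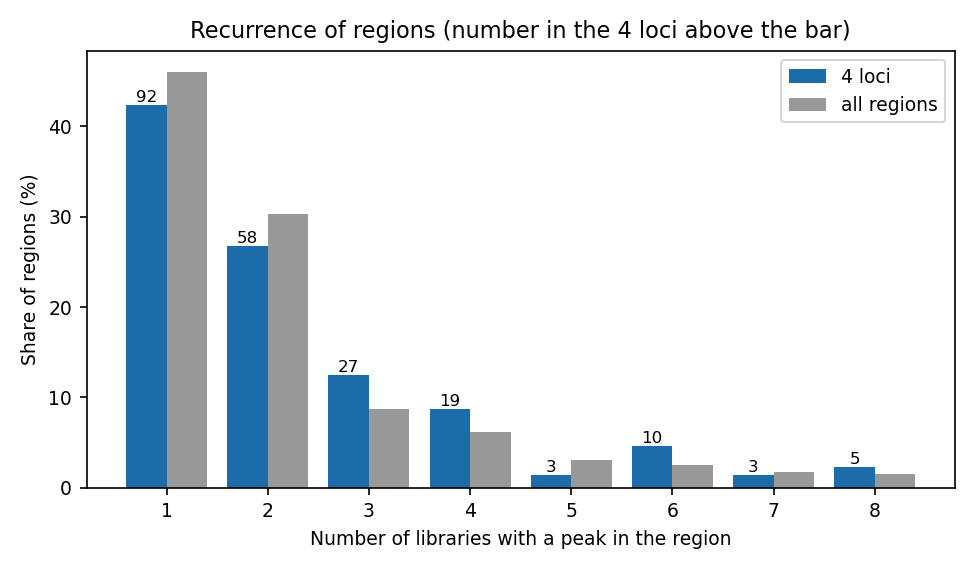
Bars give the share of regions (%) with a peak in 1 to 8 libraries, blue for the 217 regions of the 4 loci with their number above and grey for all 306466 regions. The blue bars hold 92 regions in 1 library and 5 in all 8, and differ from the grey bars by a few percentage points at most.

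The Jaccard index, the share of regions with a peak of both libraries among those with a peak of either, averaged 0.525 ± 0.087 (SD, n = 4 pairs) between native and BiD libraries of 1 factor in the 4 loci. The Nanog pair had the highest index, 0.610, ahead of Nr5a2 (0.565), Sox2 (0.518) and Oct4 (0.408). Among the 24 pairs of different factors it averaged 0.167 and ranged from 0.0847 to 0.317, so every same-factor pair was above every other pair. No index over all regions of the genome is given here, so this order cannot be read as particular to the 4 loci. In the genome 84.3% of regions with a peak in 2 libraries likewise joined the forms of 1 factor. The highest value between factors was that of native Nanog with Sox2BiD. Gene by gene, Nanog was most alike at Runx1 (20 of 29 regions shared) and Nr5a2 at Cbfb (9 of 14), while Oct4 shared 4 of 11 regions at Runx1 and 20 of 45 at Runx2.

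Matches to factor motifs within 50 bp of a summit were few, and those of Oct4 and Nr5a2 lay mostly where the factor had a peak. Of 7 regions with an octamer, 6 were among the 93 of Runx2, 1 was at Cbfb and none was at Runx1 or Runx3, and Oct4BiD had a peak in all 7. Among regions with peaks of Oct4 alone 5 of 37 held an octamer, against 0 of 142 regions without Oct4. For the NR5A motif (CAAGGTCA) these counts were 7 of 48 and 1 of 129, for the SOX motif (CCATTGTT) 1 of 26 and 0 of 136, and for the NANOG motif (GCCATTA) 2 of 34 and 1 of 135, too few to set apart. The Runx2 site at 203.0 kb printed above held 2 octamers, at bases 21 and 50 of the printed stretch.

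The share of locus summits with the motif of the own factor was not separable from that of the whole library. In native Nr5a2 it was 12 of 86 (14.0%, exact 95% interval 7.42 to 23.1) against 8.02% of all its summits, and in Oct4BiD 8 of 64 (12.5%, 5.55 to 23.2) against 9.72%. In native Oct4 it was 5 of 43 (11.6%, 3.89 to 25.1) against 4.17%. The motif of AP-1 (TGAGTCA), the Fos and Jun dimer of fibroblast enhancers, was near 40 of the 513 summits (7.80%, 5.63 to 10.5), within the range of 3.61% to 10.2% over all summits of single libraries.

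RUNX matches were found in 13 of the 217 regions (5.99%), with 4 at Runx1, 5 at Runx2, 2 at Runx3 and 2 at Cbfb. The share over all summits of a library ran from 2.27% to 7.97%, and 5.99% lies within that range. A share of joined regions is not a share of summits, so neither an excess nor a lack can be read from it. Of these 13, 5 regions besides the Runx3 site at 26.3 kb had a peak in more than 1 library. They were the Nanog sites upstream of Runx1 and Runx3 shown above, an Oct4 site 5.4 kb upstream of Runx1 (17 and 18 tags), a site of Nanog and Nr5a2 at 37.3 kb in Runx1 (36 and 34, 40 and 26 tags) and one at 136.8 kb in Runx2. By library, RUNX matches were near 0 of 43 locus summits in native Oct4 (upper exact limit 8.22%, 3.58% over all its summits) and 0 of 46 in native Sox2 (7.71%, 4.91% over all). The shares were also below those of all summits in native Nanog (5.26% against 7.59%), NanogBiD (5.33% against 7.97%) and Sox2BiD (2.47% against 4.32%). They were above them in Oct4BiD (4.69% against 3.15%), native Nr5a2 (5.81%, exact interval 1.91 to 13.0, against 2.27%) and Nr5a2BiD (3.28% against 2.97%). A match is a run of letters and not a measured RUNX site.

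Promoter summits were also counted at other genes of RUNX biology. Of 10 partners and corepressors, 8 to 10 had a promoter summit in each library. Runx1t1 and Cbfa2t2, of the ETO corepressor family, Tle1 and Tle4, Groucho corepressors, Etv6, a fusion partner of RUNX1 in leukaemia, and Yap1 and Wwtr1, coactivators of the Hippo pathway, had one in all 8 libraries, while Cbfa2t3 had one in 2. Of 12 target genes 3 to 8 did, with the cell cycle inhibitor Cdkn1a and the receptor Csf1r in all 8, and the bone genes Spp1 in 5, Sp7 and Ibsp in 3 and Bglap in 2. The blood genes Spi1 and Cd4 had one in both Nr5a2 libraries alone. No test was made of these lists, and the shares of all genes are those given above for each library.

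Markers were used to check the label of the cells, as far as promoter peaks, which are not expression, can show it. Of 8 fibroblast markers 5 to 8 had a promoter summit in each library, with the collagens Col1a2 and Col3a1 and Twist1 in all 8. Of 5 blood cell markers 0 to 2 did, and Gata1 and Cd3e had none in any library. Of 5 pluripotent cell markers 0 to 2 did, and Dppa4, Dppa5a and Zfp42 had none in any library. Tdgf1 had one in NanogBiD, native Oct4, Oct4BiD and native Nr5a2, and Utf1 in native Nr5a2. The share of all protein-coding genes with a promoter summit was lowest in native Sox2 (25.2%) and highest in native Nr5a2 (63.5%). Fibroblast, blood cell and pluripotent cell markers with one numbered 5, 0 and 0 in native Sox2 and 7, 2 and 2 in native Nr5a2. These lists were not tested.

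The genes whose summits per 10000 peaks were distributed over the 8 libraries most like those of a member were found by Euclidean distance on the centred log2 scale among 16968 genes with at least 40 summits. They were Il18r1, Il1rl1 and Cyp26c1 for Runx1 (distances 0.61 to 0.70), P4ha3, Hgd and App for Runx2 (0.23 to 0.30), Ano9, Ncoa5 and Tspan17 for Runx3 (0.63 to 0.67), and Nfat5, Hspa9 and B4galt3 for Cbfb (0.22 to 0.27).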

How the data were processed

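Flag CUT&Tag peak lists of 8 libraries were used, 1 per group. By the methods and the submitters' processing notes, Trim Galore 0.6.4 trimmed the reads and Bowtie2 2.4.5 aligned them to mm10; the authors then kept reads of mapping quality 30 or more that were neither repetitive nor mitochondrial (SAMtools 1.16.1) and called peaks with MACS 1.4.2 (shift size 25 bp, 1 tag per position). The methods speak of merged replicates, while the reporting form states a single experiment. The deposited score is the authors' 10 times negative log10 of the p-value, with a lowest value of 50. Heights are the signal, in tags, that the authors deposited for the summits. They carry no scaling to depth and were ranked within libraries. The lists hold no read totals. The study's reporting form lists them, and they were not used here; by that form the library with more read pairs gave the shorter list for Oct4, Sox2 and Nr5a2 and the longer one for Nanog.

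Genes and start sites came from GENCODE M21. Peaks overlapping by 1 bp were joined to regions. In gene windows and motif shares 110 peaks off the placed chromosomes were left out. They stayed in the peak totals, the values per 10000 peaks and the height percentiles. Motifs were searched on both strands within 50 bp of the summit, and promoters came from RefSeq (all 4 genes matched). For the test between factors, log2 of summits plus 0.5 per 10000 peaks was used for genes with at least 16 summits. The pairing test between factors was checked on simulated counts, and the sign-flip test only for its smallest possible p. Python 3.11.15, NumPy 2.4.6, pandas 2.3.3, SciPy 1.17.1 and matplotlib 3.10.9 were used. Alternatives changed the window (50 kb), the score minimum (100), the number of peaks (20000), the pseudocount (1), the low-count filter, the overlap rule, the promoter distance (500 bp), the motif window (100 bp) and the factors.

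The members and gene lists were chosen with earlier results of these data known. Named sites were the tallest of a library, those in most or all libraries, all member promoters, and sites of 1 factor in the top 10% of both forms. The paired RUNX matches, the sites with a RUNX match, the sites shared by Nanog and Sox2 or lacking 1 factor, and those of Runx2 printed for Oct4 were chosen after their values were seen.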

Additional observations from a re-analysis of the deposited data

Results flagged for a closer look

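Nr5a2 had fewer summits in its BiD library than in the native one, where the other factors had more in all 4 loci together. Its log2 ratio of BiD over native was -0.50 over the 4 loci, -0.46 at Runx1, -0.56 at Runx2, -0.62 at Runx3 and -0.24 at Cbfb. At Runx3 the ratio of Oct4 was also negative, at -0.26, from 6 and 5 summits. With 1 library per group the difference between factors was not tested. The native Nr5a2 list held 108030 peaks and that of Nr5a2BiD 76217, the one factor whose native list was the longer, and the part of list length in these ratios was not tested beyond the value per 10000 peaks, which was 0.01 for Nr5a2.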

How the results depend on the processing

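The mean BiD over native ratio (log2 0.32) changed sign with lists cut to their 20000 best-scoring peaks (-0.15) and per 10000 peaks (-0.020). It ranged from 0.16 to 0.60 with 1 factor left out. None of these could reach 0.05 in the exact sign-flip test, whose smallest possible p is 0.125 with 4 factors and higher with fewer. The 5 regions common to all libraries became 3 with summits within 100 bp and 1 with scores of at least 100, and the same-factor Jaccard index of 0.525 became 0.378 with summits within 100 bp. The 36 promoter summits became 21 within 500 bp, and the AP-1 share of 7.80% became 16.4% in the wider window, which holds more sequence. In the test between factors, unadjusted p of Runx2 became 0.0952 (score) and 0.114 (20000 peaks), that of Cbfb 0.0286 (20000 peaks) and that of Runx3 0.0095 (50 kb), by the exact permutation test, and genes at or below 0.05 went from 5409 to 2195 with 20000 peaks; 0 genes passed the adjusted threshold under any setting. The other 33 alternative values stayed on their side of the threshold and in their direction. Read totals were not used here, and a missing peak may lie below the caller's threshold. No paired analysis was possible because each group holds 1 library and no replicate numbers pair samples; native and BiD libraries were matched by factor alone.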
